A study of Rattus norvegicus with 4 samples.

Results

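The interleukin 1 family and its receptors were followed here in RT4D6 cells, a rat Schwannoma line, in which Sox10, a transcription factor of glia, had been lowered by siRNA. The family was represented by 8 genes, the ligands Il1a, Il1b, Il18 and Il33, the receptor antagonist Il1rn, and the receptor chains Il1r1, Il1rl1 and Il1rap. A probe set, the group of short probes that reads 1 transcript on the array, was taken when its annotation named exactly 1 of these genes and no other. This gave 14 probe sets of 31042 without controls, and 8 genes of 14217 with a probe set of their own. The 8 genes had been selected on their signals in this same comparison, so that the differences described for them were part of the choice. Where a probe set of theirs is said to be past a threshold, this places it in the fit over all probe sets and is a description, not a test of the choice.

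RNA was profiled on 4 Affymetrix Rat 230 2.0 arrays, 2 of cells given the wild type siRNA, which is specific to Sox10, and 2 of cells given the mutant siRNA, which served as the control. All 4 arrays were of the same cell line at 48 hours, so that they describe 1 tumour line. The paper states that the cell samples came in 2 independent pairs. The labels number the arrays as replicate 1 and replicate 2 in both groups without saying that a number marks a pair, and the main fit did not pair them. The question was which transcripts depend on Sox10. The deposited MAS5 signal is a linear intensity, scaled by the authors so that the mean of each array without its lowest and highest 2% is 500.2. With 2 arrays per group the precision is limited by their number, and p-values measure only the spread between these arrays. Standard errors and p-values from limma draw in part on the spread of other probe sets of similar signal. They can be smaller or larger than the spread of a probe set's own arrays gives.

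Interleukin 1 alpha and beta bind the receptor chain encoded by Il1r1, and the antagonist encoded by Il1rn occupies the same chain without starting a signal. Interleukin 33, a nuclear protein that is released from damaged cells, binds the chain encoded by Il1rl1, known as ST2. Both ligand-bound chains then recruit the accessory chain encoded by Il1rap, and the assembled receptor passes the signal through the adaptor Myd88 to NF-kB and the MAP kinases. Interleukin 18 uses a receptor pair of its own. In peripheral nerve, interleukin 1 is known from the response to injury, in which Schwann cells and incoming macrophages take part.

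Sox10 itself had signals of 163.4 and 335.4 with the wild type siRNA, against 2872.6 and 2890.1 with the mutant siRNA, a log2 difference of -3.54 ± 0.33 (standard error, limma adjusted p = 0.0013). The summed signal of the 7 of 10 Schwann cell markers with a probe set was between 1901.6 and 2497.9 on the wild type siRNA arrays and between 11767.7 and 17159.8 on the mutant siRNA arrays. Of the 6 that were bright enough to test 5 were lower, against 10.6% of all tested genes. Both the sums and the 5 include Sox10 itself. Egr2 was not called, at -0.07 (limma adjusted p = 0.951). It had 1351.3 and 390.3 with the wild type siRNA, against 1616.1 and 400.9 with the mutant siRNA. Of 8 smooth muscle markers 4 could be tested and 2 were higher (against 17.3% of all tested genes), the actin gene Acta2 and the actin-binding gene Tagln. The smooth muscle gene Smtn was not called, at a log2 difference of -0.84 (limma adjusted p = 0.0633), with signals of 279.8 and 400.5 with the wild type siRNA, against 521.9 and 770.5 with the mutant siRNA. The summed signal of the list lay between 24070.3 and 28864.4 with the wild type siRNA and between 6823.5 and 11491.1 with the mutant siRNA, most of it from Tagln, which had 21241.7 and 22657.1 with the wild type siRNA, against 5481.7 and 9015.1 with the mutant siRNA. The part of these shifts in the results on interleukin 1 genes was not tested. In RNA of a whole culture, fewer cells of a type and less RNA per cell cannot be told apart.

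Promoters of 4 of the genes are shown, those of the 3 genes with a probe set past the test threshold and that of Il1rl1, the receptor chain for interleukin 33, because Sox proteins bind DNA at the 5-base core ACAAT, or ATTGT on the other strand. Each window runs from 250 bases before the gene's start to 50 bases after it, 5′ to 3′ on the gene's strand, in the rat assembly GRCr8 from RefSeq, with any core in capitals. They lie at chr11:87704293-87704592 on the minus strand for Il1rap, chr1:237115323-237115622 on the plus strand for Il33, chr3:27520072-27520371 on the plus strand for Il1rn and chr9:50203388-50203687 on the plus strand for Il1rl1.
Il1rap: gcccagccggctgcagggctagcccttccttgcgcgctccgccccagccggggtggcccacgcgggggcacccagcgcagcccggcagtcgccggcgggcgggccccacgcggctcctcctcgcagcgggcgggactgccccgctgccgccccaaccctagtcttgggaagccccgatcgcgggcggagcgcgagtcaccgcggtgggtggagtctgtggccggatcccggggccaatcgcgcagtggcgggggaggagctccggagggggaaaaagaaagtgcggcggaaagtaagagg
Il33: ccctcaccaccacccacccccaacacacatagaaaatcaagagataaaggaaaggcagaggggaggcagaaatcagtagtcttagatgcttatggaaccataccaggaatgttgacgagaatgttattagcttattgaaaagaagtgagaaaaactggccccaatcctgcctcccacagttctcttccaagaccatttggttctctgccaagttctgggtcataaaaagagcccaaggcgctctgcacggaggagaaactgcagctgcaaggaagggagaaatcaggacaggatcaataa
Il1rn: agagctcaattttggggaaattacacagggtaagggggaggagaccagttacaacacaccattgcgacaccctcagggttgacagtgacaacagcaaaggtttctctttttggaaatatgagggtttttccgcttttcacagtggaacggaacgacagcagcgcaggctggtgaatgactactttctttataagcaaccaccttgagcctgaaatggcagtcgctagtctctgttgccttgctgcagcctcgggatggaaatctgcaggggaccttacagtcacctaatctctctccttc
Il1rl1: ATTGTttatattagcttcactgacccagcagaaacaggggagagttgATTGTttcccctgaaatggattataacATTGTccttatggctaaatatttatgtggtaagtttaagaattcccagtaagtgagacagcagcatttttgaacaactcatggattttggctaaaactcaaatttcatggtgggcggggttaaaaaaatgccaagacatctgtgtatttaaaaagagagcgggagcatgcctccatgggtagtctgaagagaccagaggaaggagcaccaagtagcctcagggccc

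All 8 genes matched a RefSeq entry and had 10 such windows between them, since Il33 and Il1rap had 2 starts each. The core was found in 2 of the 10 windows, once in that of Il1a at position -94 and 3 times in that of Il1rl1, where the cores open at positions -250, -203 and -176 from the start. The windows of Il1rap, Il33 and Il1rn held none. Over 33469 rat windows of the same length, 33.7% held at least 1 core and 2.16% held 3 or more. The Il1rap window consisted of G and C for 75.3% of its bases, against a median of 51.7% over all windows. A match here is a description of the letters and not a binding site, and these windows leave out introns and distant enhancers.

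Of the 14 probe sets, 9 reached the median signal of their array on 2 or more of the 4 arrays, whatever the group, and entered the test. The other 5, both probe sets of Il1a, that of Il1b and 2 of the 3 of Il1r1, were too dim. Of the 9, 4 were past the threshold in the lower direction at an adjusted p under 0.05 from limma, both probe sets of Il1rap, 1 of the 2 of Il33 and that of Il1rn, which makes 3 genes. Il1rn entered the test only through the mutant siRNA arrays. With the median required on all 4 arrays, 3 family probe sets were past the threshold in the lower direction. Over all tested probe sets 12.1% were lower. None of the 9 was past the threshold in the higher direction, where 14.6% of all tested probe sets were, and 1 was higher at an unadjusted p under 0.05 by limma, against 0 by the methods' t-test, with or without adjustment. The arrays of both groups did not overlap in 4 of the 14 probe sets in the lower direction and in 1 in the higher direction, shares that stood at 26.1% and 26.2% over all probe sets. Nothing is read from these counts, since the genes were picked with the same signals in view.

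**Figure D1:**
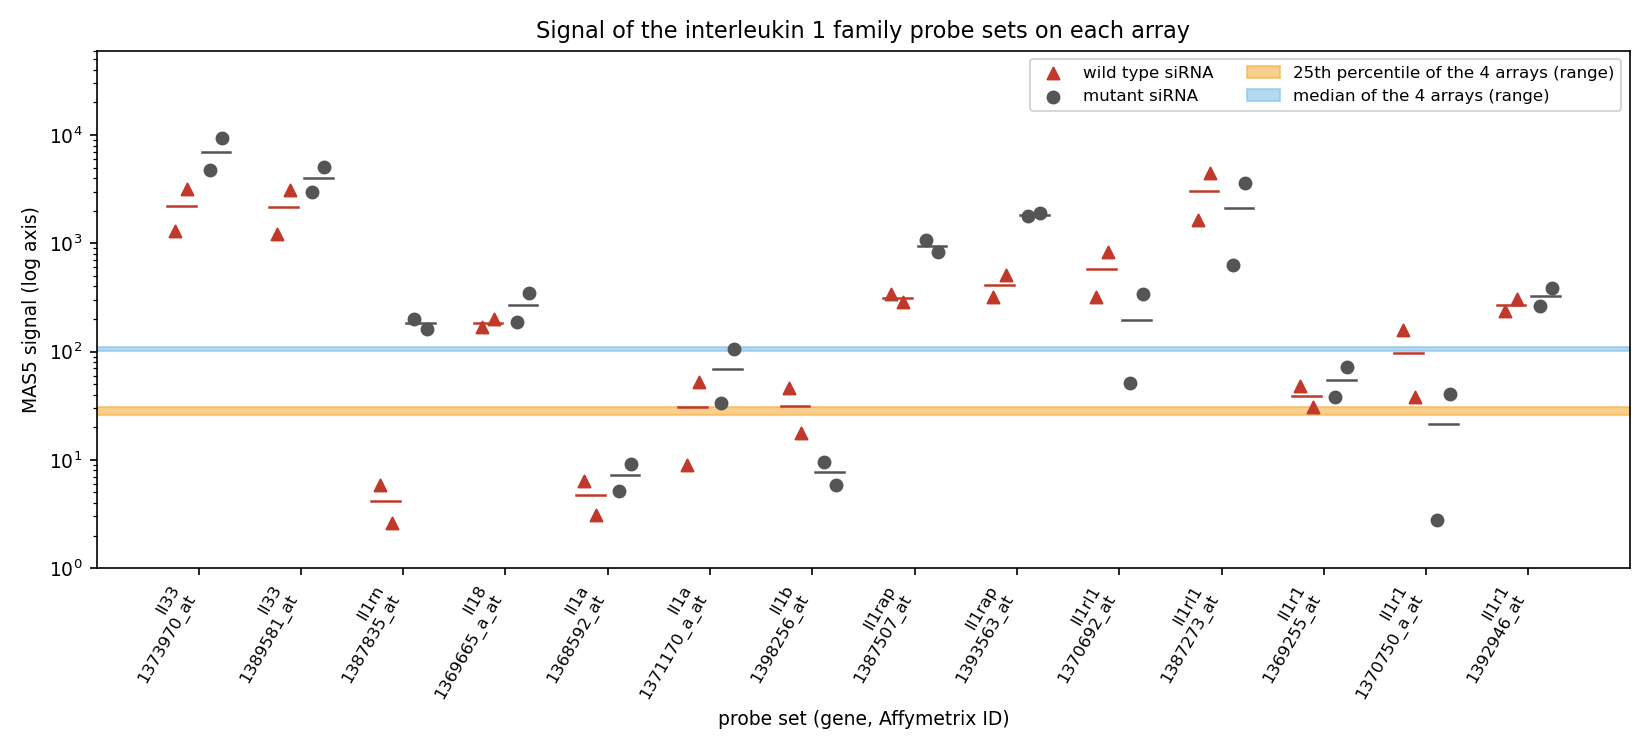
MAS5 signal (log axis) of each of the 14 probe sets, with 1 triangle for each wild type siRNA array, 1 circle for each mutant siRNA array and a line at each group mean. The bands span the 25th percentiles (26.2 to 31.0) and the medians (101.3 to 110.4) of the arrays, and the 2 Il1rn triangles lie below the lower band while both Il1rap probe sets show separate groups well above the upper one.

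Among the ligands, Il33 was measured by 2 probe sets. Probe set 1373970_at had signals of 1285.7 and 3154.1 with the wild type siRNA, against 4789.4 and 9286.8 with the mutant siRNA. Probe set 1389581_at had 1226.4 and 3073.4 with the wild type siRNA, against 2992.0 and 5083.3 with the mutant siRNA. All 8 values lay far above the array medians, which ran between 101.3 and 110.4, so that the transcript of this nuclear cytokine was bright in both groups. The groups were separate at the first probe set and overlapped at the second, where the higher wild type siRNA array exceeded the lower mutant siRNA array. The replicate 2 array was the higher one in each group, by 2.45 times with the wild type siRNA and 1.94 times with the mutant siRNA at the first probe set, and by 2.51 and 1.70 times at the second.

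The log2 difference of Il33, wild type minus mutant siRNA, was -1.65 ± 0.43 (standard error) at probe set 1373970_at, or 3.14-fold lower, and -0.93 ± 0.41 at probe set 1389581_at, or 1.90-fold lower. Between arrays of the same number, the first probe set was 3.73-fold lower for replicate 1 and 2.94-fold lower for replicate 2, and the second 2.44-fold and 1.65-fold lower. Only the first was past the threshold, and by the methods' t-test it was not, also at an unadjusted p under 0.05. Without mutant siRNA replicate 2 its difference was -1.19 and no longer past it, as with limma without an intensity trend, while without wild type siRNA replicate 2 the second probe set was at -1.62 and past it, as it was at -0.93 with the replicate number as a block. The direction was lower at both probe sets under each of the 9 other settings, between -2.32 and -0.97 at the first and between -1.62 and -0.24 at the second.

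Il1rn, the antagonist that keeps interleukin 1 from its receptor, had signals of 5.8 and 2.6 with the wild type siRNA, against 201.4 and 162.6 with the mutant siRNA at probe set 1387835_at. The mutant siRNA arrays lay above their medians and the wild type siRNA arrays below their 25th percentiles, where signals are close to background. The probe set thus entered the test only through the mutant siRNA arrays, and was not tested with the median required on all 4 arrays. The log2 difference was -5.46 ± 1.62 (standard error). With all signals raised to at least the 25th percentile of their array it was -2.66, so that the direction was kept and the size was not. The difference was past the threshold, and missed it after quantile normalization, with the replicate number as a block, without mutant siRNA replicate 1, at -5.29, and without mutant siRNA replicate 2, at -5.64.

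Il18, a ligand stored as an inactive precursor, had signals of 169.6 and 201.3 with the wild type siRNA, against 188.4 and 348.1 with the mutant siRNA. The groups overlapped, and the log2 difference was -0.39 ± 0.36, not past the threshold. The genes of the founding ligands were dim. Il1a, the cell-bound alarm form, had signals between 3.1 and 6.4 with the wild type siRNA and between 5.2 and 9.2 with the mutant siRNA at probe set 1368592_at, all of them below the 25th percentile. Its other probe set, 1371170_a_at, had signals of 9.0 and 52.1 with the wild type siRNA, against 33.6 and 105.3 with the mutant siRNA, and overlapped too. Of these 4 signals 3 were above the 25th percentile of their array and all were under its median.

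Il1b, the secreted form made mostly by activated myeloid cells, had signals of 45.8 and 17.6 with the wild type siRNA, against 9.6 and 5.8 with the mutant siRNA. The groups did not overlap, but 3 of the 4 signals were below the 25th percentile of their array. The log2 difference of 2.01 ± 1.25 became 0.33 when signals were raised to that percentile.

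**Figure D2:**
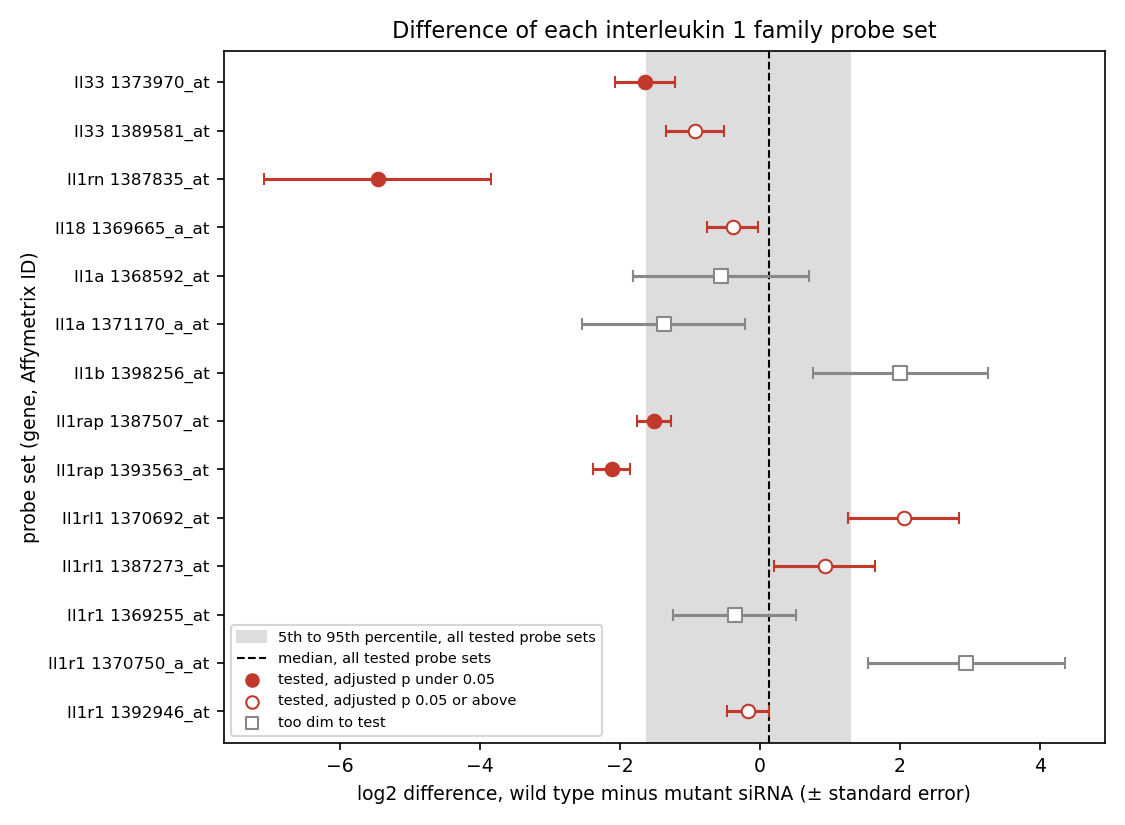
Log2 difference, wild type minus mutant siRNA, of each of the 14 probe sets with its standard error, filled where the adjusted p from limma was under 0.05, open where it was not and square where the probe set was too dim to test. The band holds the 5th to 95th percentile of all tested probe sets (-1.61 to 1.29) and the dashed line their median (0.13), and Il1rn, Il1rap 1393563_at and Il33 1373970_at lie to the left of the band.

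Among the receptor chains, Il1rap differed with the smallest standard error from limma. By the spread of the own arrays, Il1rap 1393563_at (0.37) was above Il1r1 1392946_at (0.33). Probe set 1393563_at had signals of 316.6 and 506.1 with the wild type siRNA, against 1788.5 and 1889.9 with the mutant siRNA. Probe set 1387507_at had 341.2 and 285.9 with the wild type siRNA, against 1061.8 and 835.3 with the mutant siRNA. Both groups were separate at both probe sets, and every wild type siRNA signal was still above the array median.

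The log2 difference of Il1rap was -2.12 ± 0.27 (standard error) at 1393563_at, or 4.35-fold lower, and -1.51 ± 0.24 at 1387507_at, or 2.85-fold lower. Between arrays of the same number the first was 5.65-fold lower for replicate 1 and 3.73-fold lower for replicate 2, and the second 3.11-fold and 2.92-fold lower. Over the 9 settings that changed the scaling, the faint signals, the block or the arrays, the differences lay between -2.49 and -1.75 at 1393563_at and between -1.70 and -1.32 at 1387507_at. Both were past the threshold in the limma fit and not with the methods' t-test after adjustment. Il1rap is known to make a membrane form, which joins the receptor, and a soluble form, which does not signal, and the annotation used here does not say which of them each probe set reads.

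Il1rl1, the receptor chain for interleukin 33, had higher signals with the wild type siRNA when arrays of the same number were set side by side. Probe set 1387273_at had signals of 1657.4 and 4469.9 with the wild type siRNA, against 636.5 and 3591.7 with the mutant siRNA. Probe set 1370692_at had 317.4 and 838.8 with the wild type siRNA, against 50.9 and 338.9 with the mutant siRNA. Each wild type siRNA signal was above that of the mutant siRNA array of the same number. The ratio was 2.60 for replicate 1 and 1.24 for replicate 2 at the first probe set, and 6.24 for replicate 1 and 2.48 for replicate 2 at the second. The groups overlapped at both probe sets, since replicate 2 exceeded replicate 1 by between 2.64 and 6.66 times within a group.

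The log2 difference of Il1rl1 was 2.05 ± 0.79 (standard error) at 1370692_at and 0.93 ± 0.72 at 1387273_at, neither past the threshold. Both depended on mutant siRNA replicate 1, the array with the lowest signal at each probe set. Without it the differences were 0.70 and -0.30, and without mutant siRNA replicate 2 they were 3.40 and 2.16 and past the threshold. Without wild type siRNA replicate 1 the probe set 1370692_at was past it as well, at 2.78, and with the replicate number as a block both were past it, at the same differences. The gene is known to give a membrane receptor and a secreted decoy from separate transcript ends, and the annotation used here does not assign them to the probe sets.

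**Figure D3:**
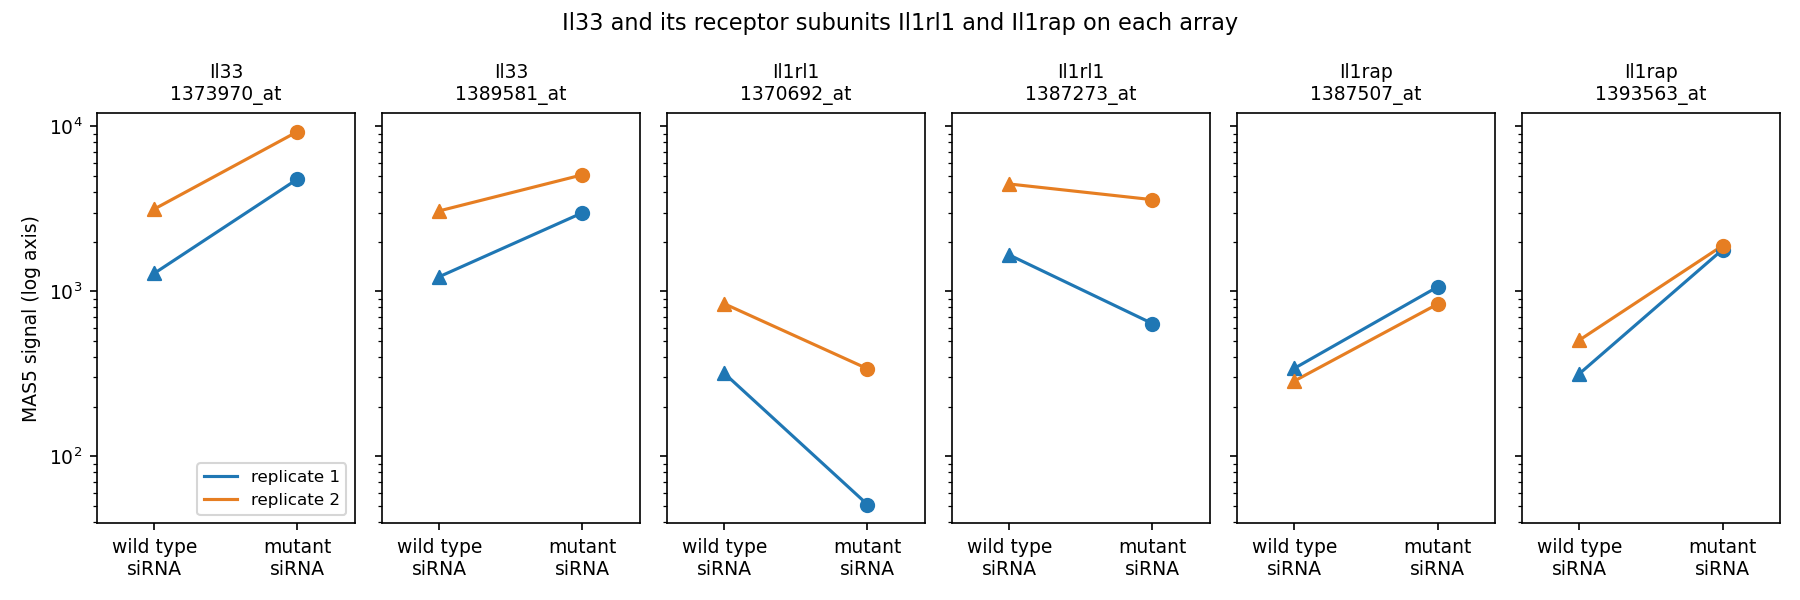
MAS5 signal (log axis) of Il33, of its receptor chain Il1rl1 and of the accessory chain Il1rap, 2 probe sets each, with lines that join the wild type and mutant siRNA arrays of the same replicate number. Lines climb toward the mutant siRNA for Il33 and Il1rap and descend for Il1rl1, and the replicate 2 line lies above the replicate 1 line for Il33 and Il1rl1.

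Il1r1, the chain that binds interleukin 1 alpha and beta, had 1 probe set bright enough to test, 1392946_at, with signals of 234.9 and 305.9 with the wild type siRNA, against 264.8 and 382.7 with the mutant siRNA. The groups overlapped and the log2 difference was -0.17 ± 0.30. Its probe set 1369255_at had signals between 30.6 and 48.0 with the wild type siRNA and between 37.7 and 71.7 with the mutant siRNA, all under the array medians. The third, 1370750_a_at, gave 157.8 and 38.2 with the wild type siRNA, against 2.8 and 40.3 with the mutant siRNA, a scatter within each group that covers the difference between them. The 3 probe sets thus gave log2 differences of -0.17, -0.36 and 2.95, of which only the first rests on signals above the median.

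Il33 and the accessory chain Il1rap had negative log2 differences at both of their probe sets under every setting run, while those of Il1rl1 were positive but for 1387273_at without mutant siRNA replicate 1. In the rat annotation Il1r1 and Il1rl1 lie in 1 cluster on chromosome 9, in the order Il1r2, Il1r1, Il1rl2, Il1rl1, Il18r1 and Il18rap with 1 histone-like gene between the first pair. Il1a and Il1b are direct neighbours on chromosome 3, and Il1rn lies elsewhere on it beside Il1f10, Il36rn and Il36b. Il1rap is on chromosome 11, Il33 on chromosome 1 and Il18 on chromosome 8.

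**Figure D4:**
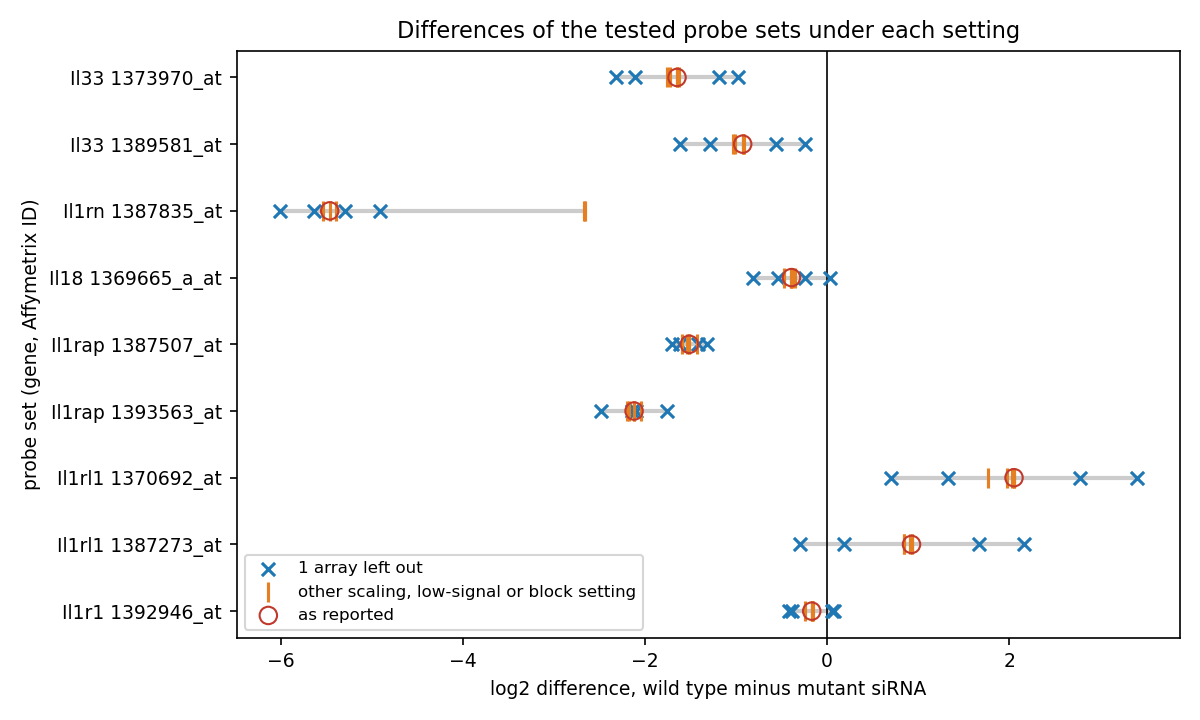
Log2 difference, wild type minus mutant siRNA, of the 9 tested probe sets as reported (open circles), with 1 array left out (crosses) and under other scaling, low-signal or block settings (bars). Both Il1rap probe sets stay between -2.49 and -1.32, Il1rn shifts from -5.46 to -2.66 when faint signals are raised, and Il1rl1 1387273_at spans -0.30 to 2.16.

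The genes whose profile over the 4 arrays was nearest to that of Il1rap 1393563_at, by Euclidean distance of log2 signals after each probe set's own mean was removed, were Iqgap3, a scaffold of the IQGAP family, at 0.0936, Limch1, an actin-associated protein, at 0.121, Gng2, a gamma subunit of G proteins, at 0.162, Fam210a, a mitochondrial protein, at 0.192, and Zfp36l2, which binds AU-rich mRNAs, at 0.212. Iqgap3 had signals of 157.5 and 259.7 with the wild type siRNA, against 838.9 and 938.5 with the mutant siRNA, which resembles the course of Il1rap. The other Il1rap probe set stood at a distance of 0.945 and at rank 993 in this order. The order is given as a description over 4 arrays.

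Beyond the 8 genes, 88 genes of the pathway were followed, written down in 4 lists that hold none of the 8, and 74 had a probe set of their own. Of these 42 could be tested, 1 gene each, 1 was lower and 6 were higher by limma, and 35 were not called. These shares were 2.38% lower, against 10.6% of all 9165 tested genes, and 14.3% higher, against 17.3%. The median log2 difference of the 42 was 0.21, against 0.19 over all tested genes.

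The nearest relatives of the 8 genes were too dim to test. Of 13 other ligands, receptors and decoys of the family 6 had a probe set and none reached the array median on 2 arrays. Il1r2, the decoy receptor that captures interleukin 1, had signals of 23.3 and 32.6 with the wild type siRNA, against 4.8 and 4.2 with the mutant siRNA, and a log2 difference of 2.70 that became 0.13 when signals were raised to the 25th percentile. Il18bp, the soluble binding protein for interleukin 18, had 101.3 and 89.8 with the wild type siRNA, against 86.6 and 70.8 with the mutant siRNA.

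Of 10 genes that cleave or release the ligands, 7 had a probe set and 5 could be tested. None was lower and none was higher, by limma or by the methods' t-test, also at an unadjusted p under 0.05, where the counts were 0 and 0 by either test. Their median log2 difference was -0.20. The inflammasome adaptor Pycard had the largest difference among the 5, -0.88 ± 0.46 (standard error, limma adjusted p = 0.182), with signals of 133.2 and 354.8 with the wild type siRNA, against 338.4 and 529.3 with the mutant siRNA, which overlap. Casp1, the protease that matures interleukin 1 beta and interleukin 18, was too dim, at 105.4 and 3.6 with the wild type siRNA, against 39.5 and 18.4 with the mutant siRNA.

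The relay from receptor to nucleus had 29 of its 33 genes on the array and 25 tested, of which 3 were higher (12%, against 17.3% of all tested genes) and 1 was lower (4%, against 10.6%). Myd88, the adaptor that all signalling receptors of the family share, had signals of 695.1 and 588.0 with the wild type siRNA, against 287.0 and 361.6 with the mutant siRNA, a log2 difference of 1.07 ± 0.24 (standard error, adjusted p = 0.0145). Mapkapk2, a kinase downstream of p38 that stabilises cytokine mRNAs, had 1979.5 and 1512.8 with the wild type siRNA, against 853.8 and 1004.9 with the mutant siRNA, at 0.98 ± 0.21 (adjusted p = 0.0124). Both were higher on each wild type siRNA array than on either mutant siRNA array, and both missed the threshold without mutant siRNA replicate 1, Myd88 at 0.92 (adjusted p = 0.0838) and Mapkapk2 at 0.88 (adjusted p = 0.0748), as Mapkapk2 did without an intensity trend (0.0502).

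The subunit gene Nfkb2 of NF-kB had signals of 390.5 and 377.5 with the wild type siRNA, against 223.8 and 238.9 with the mutant siRNA, a log2 difference of 0.81 ± 0.25 (standard error, adjusted p = 0.0456), which was lost when any array was left out, at adjusted p values from 0.0967 to 0.153, with the signals as deposited (0.0641), with no filter (0.0959) and without an intensity trend (0.0527). Peli1, a ubiquitin ligase that acts on the receptor kinases, was the gene that fell, with 603.0 and 803.0 with the wild type siRNA, against 1392.5 and 1960.4 with the mutant siRNA, at -1.17 ± 0.25 (adjusted p = 0.0124). Its call was lost without mutant siRNA replicate 2, at -0.94 (adjusted p = 0.0861), and without an intensity trend (0.0532), and a further Peli1 probe set was lower as well, at -1.22 (adjusted p = 0.0212).

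Other partners in the relay were not called. Traf6, the ubiquitin ligase that takes the signal from the receptor kinases, had signals of 449.5 and 401.1 with the wild type siRNA, against 287.9 and 289.0 with the mutant siRNA, at 0.64 (adjusted p = 0.0810). Its other probe sets 1384582_at, 1393809_at and 1392660_at were at 1.07, 2.20 and -0.49, so that they differed in sign, and none was called. Irak4, the first kinase of the chain, was too dim. Probe sets of 1 gene disagreed in their call for Peli2 and Tollip. Of Peli2, 1389592_at was lower at -1.41 (adjusted p = 0.0180) and 1390942_at was at -0.52 (adjusted p = 0.218). Of Tollip, an inhibitor of the relay, 1378572_at was higher at 0.77 (adjusted p = 0.0356) and the others were at -0.34 and -0.25. Both genes entered the counts above by their brightest probe set, which was not called.

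Of 32 genes known to be induced by interleukin 1 in many cell types, all had a probe set, 20 were too dim and 12 could be tested. Of the 12, 3 were higher (25%, against 17.3% of all tested genes) and 0 were lower by limma (10.6% of all tested genes), and 0 were lower at an unadjusted p under 0.05 by limma or by the methods' t-test. By that t-test 2 were higher at an unadjusted p under 0.05 and 0 after adjustment. Icam1 was among these 2, while Cxcl1 and Il6 were not. Icam1, the adhesion molecule for leucocytes, had signals of 682.3 and 772.6 with the wild type siRNA, against 189.1 and 236.4 with the mutant siRNA, a log2 difference of 1.86 ± 0.25 (standard error, adjusted p = 0.00278), or 3.63-fold. Cxcl1, a chemokine for neutrophils, had 666.5 and 1716.4 with the wild type siRNA, against 177.8 and 214.3 with the mutant siRNA, at 2.53 ± 0.41 (adjusted p = 0.00519), or 5.79-fold. These genes answer to many signals besides interleukin 1, and a median log2 difference of 0.37 over the 12 stood beside 0.19 over all tested genes.

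Il6, the cytokine of that list with the largest difference, had signals of 287.2 and 615.4 with the wild type siRNA, against 12.8 and 90.5 with the mutant siRNA, a log2 difference of 3.71 ± 0.85 (standard error, adjusted p = 0.0161). The lower mutant siRNA signal was below the 25th percentile of its array, so that the size of the difference rests on a faint value. Il6 entered the test only through the wild type siRNA arrays, so that its place among the higher genes rests on that filter. With the median required on all 4 arrays Il6 was not tested, and 5 pathway genes were higher, against 6. Il6, Cxcl1 and Icam1 were past the threshold when any 1 array was left out and with both other scalings, and Il6 missed it in limma without an intensity trend (adjusted p = 0.0604). Nfkbia, the inhibitor of NF-kB that is an early target of it, had 546.5 and 751.0 with the wild type siRNA, against 502.9 and 521.8 with the mutant siRNA, and was not called at 0.40 (adjusted p = 0.248). Tnfaip3, Nfkbiz, Csf1 and Tnip1 of the same list had negative log2 differences, at -0.64, -0.57, -0.37 and -0.01, none of them called. The rest of its tested genes had positive differences.

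**Figure D5:**
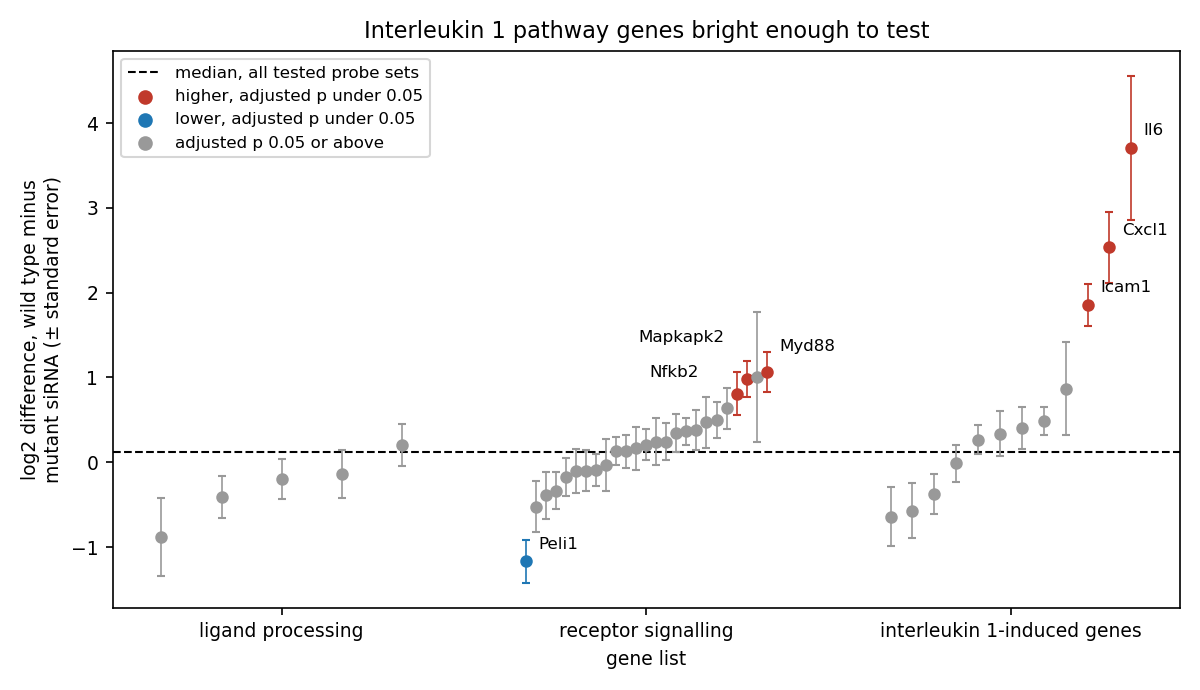
Log2 difference, wild type minus mutant siRNA, with its standard error for the 42 tested pathway genes in 3 lists, each ordered by its difference, coloured where the adjusted p from limma was under 0.05. The dashed line is the median of all tested probe sets (0.13), and Il6, Cxcl1 and Icam1 stand above the rest of the genes known to be induced by interleukin 1, while Peli1 alone is coloured as lower.

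Markers of cells that make or answer to interleukin 1 were set beside these values. Of 11 markers of macrophages and other leucocytes 10 had a probe set and 1 could be tested, the co-receptor Cd14, with signals of 777.8 and 638.8 with the wild type siRNA, against 453.3 and 695.0 with the mutant siRNA, which was not called. The pan-leucocyte marker Ptprc had 64.3 and 29.4 with the wild type siRNA, against 29.7 and 27.4 with the mutant siRNA, all under the array medians and 1 below the 25th percentile. Itgam had 4.5 and 3.8 with the wild type siRNA, against 4.9 and 7.1 with the mutant siRNA, all below that percentile. Cd68 had 84.0 and 98.5 with the wild type siRNA, against 4.0 and 92.3 with the mutant siRNA, under the medians too. The summed signal of that list was between 1008.3 and 1201.4 with the wild type siRNA and between 658.9 and 1112.8 with the mutant siRNA. That of 6 fibroblast markers was between 2540.4 and 3969.6 with the wild type siRNA and between 2314.4 and 2501.0 with the mutant siRNA, and the 1 that could be tested, Col1a1, was not called, at a log2 difference of 0.70.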

How the data were processed

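RNA of RT4D6 cells was hybridised to 4 one-colour arrays. The authors deposited intensity values, linear MAS5 signals with 1 for each probe set, and the submitters' processing notes name MAS5 with no version. Detection calls were not used. Symbols came from the platform annotation, with 20826 of 31042 probe sets having 1 symbol, 436 several and 9780 none, and 57 control probe sets were left out. All 14 probe sets of the family kept their symbol in RefSeq. Log2 signals were centred on the array median. The 16125 probe sets at or above that median on at least 2 arrays were tested with limma 3.58.1 (lmFit, eBayes with an intensity trend, two-sided) in R 4.3.3, with calls below 0.05 after Benjamini-Hochberg adjustment. The script was tested on simulated data. Differences are wild type minus mutant siRNA. Standard errors are those of limma, moderated over all tested probe sets. The spread of the own arrays was 0.82 for Il33 1373970_at, against a limma error of 0.43. It was 1.53 against 0.79 for Il1rl1 1370692_at and 0.58 against 1.62 for Il1rn. A pathway gene was counted by its tested probe set with the highest mean log2 signal.

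The family, the lists and the rule for named genes were chosen with earlier results of these data known. Named were every probe set of the family, the called genes of each list, up to 6, the direct partners of the family, the 5 profiles nearest to the brightest Il1rap probe set, and Sox10. Casp1, Pycard, Peli2, Tollip, Tnfaip3, Nfkbiz, Csf1, Tnip1 and the markers were named after their values were seen. Alternatives were other scalings, a floor or a pseudocount at the 25th percentile, other filters, limma without a trend, the methods' t-test, the smallest-p probe set, a replicate block and each array left out. That t-test was run here as an unpaired equal-variance test on log2 signals of the 16125 probe sets, a form the methods do not specify. The paper applied its own t-test after a detection filter and a fold cut-off, so the counts are not comparable. Python 3.11.15, pandas 2.3.3 and matplotlib 3.10.9 served for tables, promoter searches and plots. A Sox10 core was searched as ACAAT or ATTGT.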

Additional observations from a re-analysis of the deposited data

How the results depend on the processing

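Over all probe sets 1956 were lower and 2348 higher, and of the 42 pathway genes 1 and 6. Without a trend in limma these were 1187, 1177, 0 and 4. Leaving out 1 array at a time, they ran from 706 to 2519, 924 to 2128, 0 to 3 and 3 to 6, where the group with 1 array is taken to vary as the other does. The methods' t-test gave 0 lower and 2 higher probe sets and 0 and 0 pathway genes after Benjamini-Hochberg, and, unadjusted as in the methods, 1386 lower and 2444 higher probe sets, 3 lower and 0 higher of the family and 0 lower and 7 higher pathway genes. By the probe set with the smallest p, pathway genes were 2 lower and 7 higher. With a replicate block they were 2 lower and 9 higher, all probe sets 2580 lower and 3308 higher, and family probe sets 4 lower and 2 higher. The series' design text and the paper speak of paired cells, but the labels do not say that a number marks a pair, so the block was kept as an alternative. Deviations of same-numbered arrays correlated at 0.14 over all tested probe sets, which does not settle whether a number marks a pair. Of 126 values of family probe sets under other settings, 122 moved by less than the replicate spread and 4 by more, those of Il1b and Il1rn with faint signals raised to the 25th percentile (0.33 and -2.66) or given it as a pseudocount (0.71 and -2.67). With 1 array left out or a replicate block, a value could not move by more than this spread, so these settings cannot show stability. Il1rl1 1387273_at counted as moved by less, though it went from 0.93 to -0.30 without mutant siRNA replicate 1. The 4 lower family probe sets were 2 to 5 with 1 array left out and the 0 higher were 0 to 2. The causes were not tested. Signals near the 25th percentile carry no size of a difference.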
